A study of Mus musculus with 4 samples.

Results

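The genes described here are 7 ligands of the EGF receptor (Egf, Tgfa, Areg, Hbegf, Ereg, Epgn and Btc) and 3 receptors of its family (Egfr, Erbb2 and Erbb3), measured in mouse back skin with and without ADAM17 in keratinocytes. They were chosen by name. Every gene probe on the array that carried one of these names was taken, which gave 23 probes for the 10 genes, out of 41174 probes for 28030 names on the array. The control mice (n = 2) were Adam17 flox/flox and negative for Krt14-Cre, and the knockout mice (cKO, n = 2) were Adam17 flox/flox and positive for Krt14-Cre. Both alleles of Adam17 thus carried loxP sites in all 4 animals, and Cre was driven by the promoter of keratin 14, a keratin of basal epidermal cells and the outer root sheath. As the controls lacked Cre, Cre itself and the loss of ADAM17 cannot be told apart. All mice were 10 days old, on a mix of 129Sv and C57BL/6, and each of 2 litters gave 1 control and 1 cKO animal. Each animal was read on its own 1-colour Agilent whole mouse genome array, and all 4 arrays lay on 1 slide. Of 43379 gene spots per array, 53.7% to 56.6% were well above background and 0 were saturated.

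The EGF receptor family consists of membrane receptors with a tyrosine kinase inside the cell, which pair up when a ligand binds outside. Their ligands are made as precursors that span the cell membrane, and the soluble growth factor is released when a protease cuts the precursor close to the membrane. ADAM17 is known as a main protease for TGF alpha, amphiregulin, HB-EGF, epiregulin and epigen, while the precursors of EGF and betacellulin are known mainly as substrates of ADAM10. In skin, the receptor is strongest in basal keratinocytes and the outer root sheath, where it supports proliferation, orderly differentiation and hair growth. The array measured mRNA. Cutting of the precursors, release of the ligands and activation of the receptors were not measured.

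The results turn on a few probes, each a 60-base DNA strand with the sequence of the mRNA, and the stretches below show what was read. They come from the array files, with positions in mm9. No exon annotation of mm9 was used, so exon and untranslated region are not stated. Some probes are shown by their first 30 bases only. The Tgfa probe lies at chr6:86224838-86224897 (+ strand), the Egf probe at chr3:129380826-129380885 (- strand) and the Areg probe at chr5:91570090-91570149 (+ strand).
Tgfa, bases 1 to 30: tggacatacacagaaccaaaccatgagtta
Egf, bases 1 to 30: ataaatgatgtgatctacatagaagtctta
Areg: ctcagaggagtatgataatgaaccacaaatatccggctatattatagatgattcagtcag

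Values below are log2 signals relative to the 75th percentile of the array, differences are cKO minus control, and an error is the SD over 2 animals for a group and the SE of limma for a difference. Of the 10 genes, 9 were tested. Ereg was not, since no probe of it was well above background on both arrays of a group. Of the 9, 0 passed an adjusted p of 0.05 (limma, Benjamini-Hochberg over all 15548 genes tested), where 0.341% of all genes passed (0.0707% higher and 0.27% lower in cKO skin; 0 genes with litter as a replicate block, where 3703 had an unadjusted p under 0.05), and their adjusted p ranged from 0.199 to 0.853. At an unadjusted p under 0.05 there were 3 (Egf, Tgfa and Hbegf), beside 16.1% of all genes. In 5 of the 9 the values of the 2 genotypes did not overlap (higher in cKO skin for 2 and lower for 3), beside 49.4% of all genes (28% higher and 21.4% lower). In 6 of the 9 the difference had the same sign in both litters, beside 72.5% of all genes. The median difference was 0.08 over the 9 genes, -0.11 over the 6 tested ligands and 0.08 over the 3 receptors, against 0.03 over all genes. Within litters the ligands' median was 0.006 in litter 1 and -0.21 in litter 2, against 0.03 and 0.02 over all genes. With normexp, another background correction, the ligands' median turned to 0.10. On 1 cKO array 3 spots lay below their local background, and with such spots left out normexp gave -0.07. The counts of genes without overlap and with 1 sign in both litters are thus near those of the array as a whole. In RNA of whole skin, fewer cells of a type and less RNA per cell cannot be told apart.

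**Figure D1:**
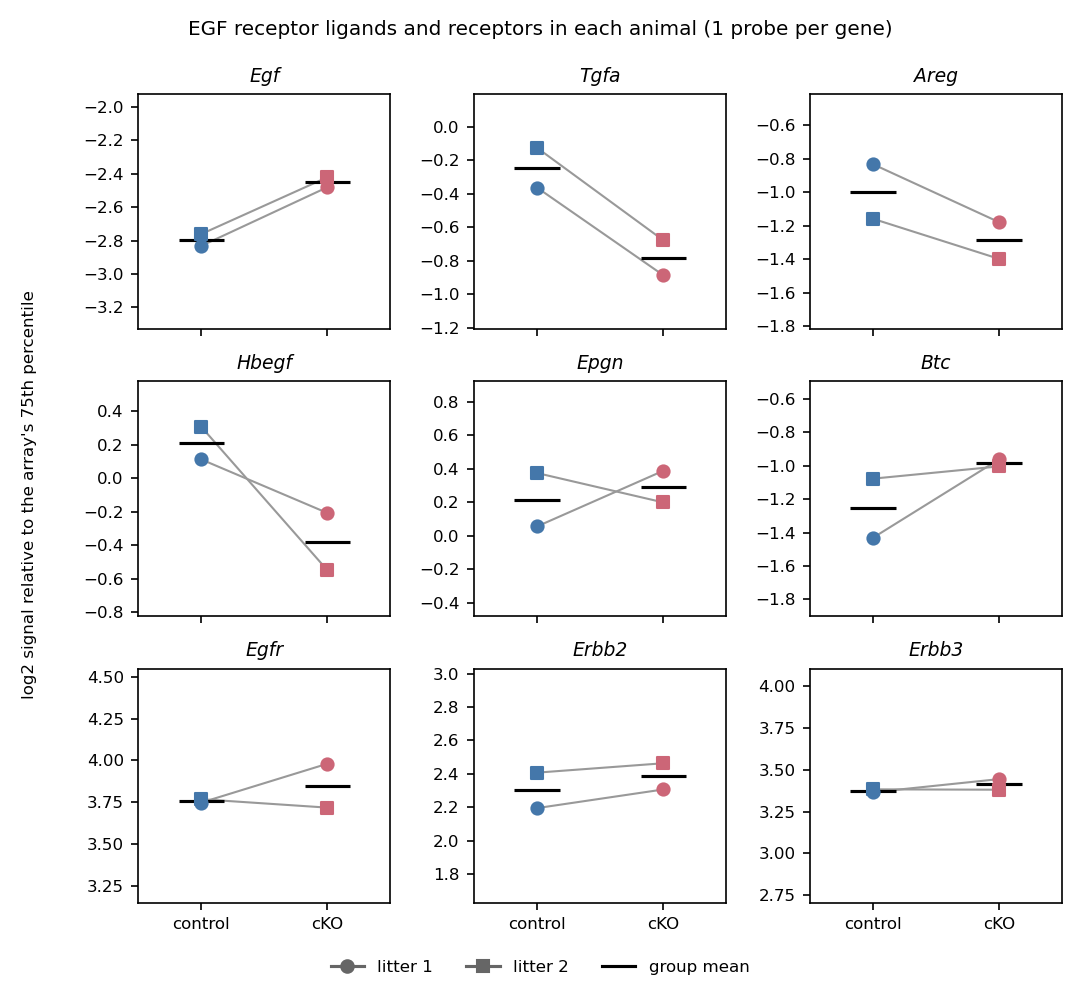
Log2 signal relative to the array's 75th percentile (y axis, each panel with its own range of equal height) in control and cKO skin, 1 probe per gene and 1 point per animal; circles are litter 1, squares litter 2, grey lines join littermates and black bars are group means (n = 2). Tgfa, Areg and Hbegf are lower and Egf and Btc higher in both cKO animals. Areg turns with normexp, but not once spots below their local background are left out. Egfr, Erbb2 and Erbb3 differ by less than 0.10 on average, and Epgn goes up in litter 1 and down in litter 2.

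Among the ligands known to be cut by ADAM17, Tgfa and Hbegf had the lowest p. Tgfa encodes TGF alpha, whose loss is known to give mice wavy hair and whiskers. Its signal was -0.36 and -0.13 in the controls of litters 1 and 2 and -0.89 and -0.68 in the cKO animals. Both cKO values lay below both controls, and litter 2 was above litter 1 in each genotype. The group means were -0.24 ± 0.17 in control and -0.78 ± 0.15 in cKO skin, a difference of -0.54 ± 0.13, or 68.9% of the control signal (adjusted p = 0.199, limma). The littermate differences were close to each other, at -0.52 and -0.55.

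This Tgfa probe was printed in 10 spots on each array, so the measurement within an array can be read apart from the animals. The SD over the 10 spots was 0.05 to 0.07. All 20 control spots (-0.53 to -0.07) were brighter than all 20 cKO spots (-0.99 to -0.57). Spots of an array share 1 RNA sample and are not replicates of the genotype. A second Tgfa probe, 2.65 kb upstream at chr6:86222191-86222250, gave -3.49 and -3.42 in control and -3.57 and -3.68 in cKO skin. This probe was dim and had 1 spot per array, with processed signals of 66.7 and 73.4 in control and 65.1 and 60.7 in cKO skin. Its groups did not overlap, beside 48.4% of all probes. The difference was -0.17 ± 0.10 (-0.08 in litter 1 and -0.26 in litter 2, limma adjusted p = 0.479 over all probes). It was 0.66 with normexp, but -0.10 with normexp once spots below their local background were left out. In the processed signal both probes were lower in cKO skin in both litters, by unequal amounts.

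Hbegf encodes HB-EGF, a heparin-binding ligand that keratinocytes make during wound closure. Its single probe (chr18:36664738-36664797, - strand) gave 0.11 and 0.31 in the controls and -0.21 and -0.55 in the cKO animals. The groups did not overlap, and the widest gap was between the animals of litter 2. The difference was -0.59 ± 0.16 (0.21 ± 0.14 in control against -0.38 ± 0.24 in cKO skin), or 66.5% of the control signal (adjusted p = 0.215, limma). Within litters it was -0.32 and -0.86, and litter 2 was above litter 1 in control skin but below it in cKO skin.

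Areg encodes amphiregulin, a heparin-binding ligand that keratinocytes make for their own growth. Its signal was -0.83 and -1.16 in the controls and -1.18 and -1.40 in the cKO animals. The control of litter 2 and the cKO animal of litter 1 were almost level, so the groups were apart by little. The difference was -0.29 ± 0.16 (adjusted p = 0.449, limma), with -0.35 in litter 1 and -0.24 in litter 2. It turned to 0.10 with normexp, but was -0.27 with normexp once spots below their local background were left out. In the processed signal it was -0.13 without control replicate 1 and -0.46 without control replicate 2. The litter difference was as large as the genotype difference, since litter 2 was below litter 1 by -0.33 in control and by -0.22 in cKO skin.

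Epgn, which encodes epigen, a ligand of low affinity, stood at 0.06 and 0.38 in the controls and 0.39 and 0.20 in the cKO animals (chr5:91464119-91464178, + strand). The groups overlapped. The difference was 0.08 ± 0.15 (adjusted p = 0.831, limma; 95% interval -0.32 to 0.48), at 0.33 in litter 1 and -0.18 in litter 2.

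Ereg encodes epiregulin and could not be compared. Its probe at chr5:91521659-91521720 (+ strand) was well above background only in the control of litter 2, with processed signals of 38.0 and 56.2 in the controls and 33.4 and 32.3 in the cKO animals. A second probe under the same gene name, taken from a cDNA clone at chr5:91480914-91480973, was well above background only in the cKO animal of litter 1, with signals of 19.3 and 25.3 in the controls and 53.7 and 35.7 in the cKO animals. That probe lies 40.7 kb from the other and on the opposite strand, and its order of genotypes was the reverse. No fold is given for either, and the gene's level was not measurable with these probes.

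Egf and Btc are the ligands known mainly as ADAM10 substrates. Egf gave -2.83 and -2.76 in the controls and -2.48 and -2.42 in the cKO animals. The animals within a genotype were less than 0.10 apart and the groups did not overlap. The difference was 0.34 ± 0.09 (-2.80 ± 0.05 against -2.45 ± 0.04), or 127% of the control signal, with 0.35 in litter 1 and 0.34 in litter 2 (adjusted p = 0.200, limma). The probe was dim, with mean processed signals of 106 and 116 in the controls and 139 and 146 in the cKO animals. Its 10 spots per array spread more widely than those of Tgfa, with an SD of 0.07 to 0.15, and the spots of the genotypes overlapped (-2.97 to -2.54 in control and -2.61 to -2.13 in cKO skin).

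Btc encodes betacellulin, which can bind both EGFR and ERBB4. Its signal was -1.43 and -1.08 in the controls and -0.96 and -1.005 in the cKO animals (chr5:91786948-91787007, - strand). The groups did not overlap, but the control of litter 2 lay close to the cKO animals. The difference was 0.27 ± 0.15 (adjusted p = 0.452, limma), at 0.47 in litter 1 and 0.07 in litter 2. It was 0.09 without control replicate 1 and 0.45 without control replicate 2. A second probe, 1.08 kb away, was well above background on 0 of the 4 arrays.

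Epgn, Ereg, Areg and Btc lie next to each other on chromosome 5, within 324 kb between the outermost probes. Their measured members did not share a direction: Areg was lower, Btc higher and Epgn differed between litters. Areg was higher with normexp, unless spots below their local background were left out.

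**Figure D2:**
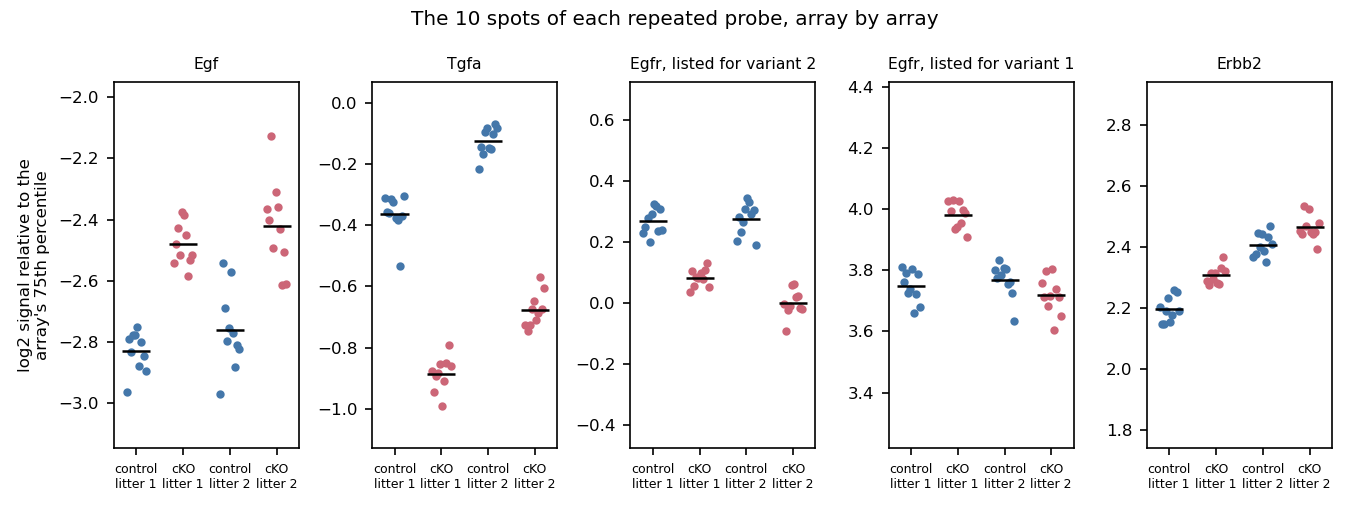
Log2 signal relative to the array's 75th percentile (y axis) of each of the 10 spots of the 5 probes that were printed 10 times, by animal; blue is control, red cKO, and black bars are means over spots. For Tgfa and the Egfr probe listed for transcript variant 2 all control spots lie above all cKO spots, for Egf they overlap, and for Erbb2 the litters differ more than the genotypes.

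Egfr, which encodes the EGF receptor itself, had 6 probes, which differed in what they showed. The mouse gene is known to make a full-length mRNA and a shorter one that ends early and encodes a secreted form without the kinase. The array files list 2 probes under the accession of transcript variant 1, the full-length one, 2 under that of the shorter transcript variant 2 and 2 under cDNA clones. A listing does not make a probe specific to a transcript: the probe listed for variant 2 that lies upstream has sequence of the part encoding the outside of the receptor, which the full-length mRNA also carries. Whether any of the other probes reads only 1 transcript was not tested. The probe sequences are shown because the probes gave differences of opposite sign. Of the probes listed for variant 2, the upstream one (chr11:16783545-16783604) lies 3.84 kb before the downstream one (chr11:16787385-16787444), and the probe listed for variant 1 with 10 spots (chr11:16813815-16813874) lies further downstream, all on the + strand.
Egfr, upstream probe listed for variant 2: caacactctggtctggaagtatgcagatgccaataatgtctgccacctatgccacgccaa
Egfr, downstream probe listed for variant 2, bases 1 to 30: caagaggttaacactacggactagccattc
Egfr, probe listed for variant 1, bases 1 to 30: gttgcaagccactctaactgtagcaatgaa

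The probe listed for variant 1 with 10 spots, which stood for the gene, gave 3.75 and 3.77 in the controls and 3.98 and 3.72 in the cKO animals. The cKO animal of litter 1 was highest and that of litter 2 lowest, so the groups overlapped. The difference was 0.09 ± 0.12 (adjusted p = 0.758, limma; 95% interval -0.23 to 0.41), at 0.23 in litter 1 and -0.05 in litter 2. The other probe listed for variant 1 (chr11:16812181-16812240) gave -1.03 and -0.99 in control and -0.996 and -1.29 in cKO skin, a difference of -0.13 ± 0.13 with opposite signs in the litters (0.03 and -0.30).

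The probes listed for variant 2 had lower values in both cKO animals than in both controls, but neither passed the test. The upstream probe gave 0.07 and 0.01 in control and -0.15 and -0.23 in cKO skin, and the downstream probe 0.27 and 0.27 in control and 0.08 and -0.00049 in cKO skin. For the downstream probe all 20 control spots (0.19 to 0.34) were brighter than all 20 cKO spots (-0.09 to 0.13). Their differences were -0.23 ± 0.09 for each (adjusted p = 0.339 and 0.338 over all probes, limma), with -0.22 and -0.24 in the litters for the upstream and -0.18 and -0.27 for the downstream probe. Of the 16 tested probes of the 10 genes, 0 passed (0.158% of all 22188 probes did), and the groups of 8 did not overlap (48.4% of all probes).

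A comparison within each array, chosen after these values were seen, set the downstream probe listed for variant 2 against the probe listed for variant 1 with 10 spots. This log2 ratio of probes was -3.48 and -3.49 in the controls and -3.90 and -3.72 in the cKO animals. Both cKO values were below both controls. The difference was -0.32, at -0.42 in litter 1 and -0.22 in litter 2 (two-sided exact permutation p = 0.333, the smallest that 2 against 2 animals allows). As the ratio was chosen with the values known, this p gives no support. With the mean of the probes listed for each variant, the difference was -0.21, at -0.33 in litter 1 and -0.09 in litter 2. Each ratio is one of probes and does not measure how much of each transcript was made. The clone probe at chr11:16817630-16817689 gave -0.09 ± 0.14 with overlapping groups, and the other clone probe was well above background on 0 arrays.

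**Figure D3:**
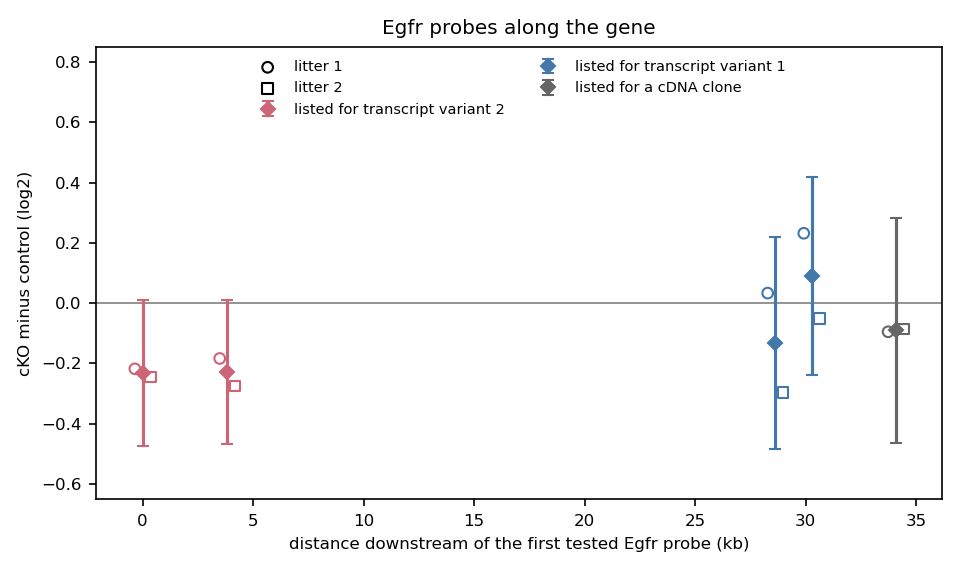
Difference cKO minus control (y axis, log2) at the 5 tested Egfr probes against distance downstream of the first (x axis, kb); diamonds are the mean of the litters with the 95% interval of limma, circles litter 1 and squares litter 2. The probes listed for transcript variant 2 lie at -0.23 with the litters side by side, while those listed for variant 1 lie at -0.13 and 0.09 with the litters apart, and all 5 intervals include 0.

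Erbb2 encodes the family member that has no known ligand of its own and serves as partner of the others. Its probe with 10 spots (chr11:98298103-98298162, + strand) gave 2.20 and 2.41 in the controls and 2.31 and 2.46 in the cKO animals. The groups overlapped, and litter 2 was above litter 1 in both genotypes, by 0.21 and 0.16. The difference was 0.08 ± 0.12 (adjusted p = 0.776, limma; 95% interval -0.24 to 0.41), at 0.11 and 0.06 in the litters. A second probe, 2.28 kb upstream, gave 0.07 ± 0.14.

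Erbb3 encodes a receptor for neuregulins with a very weak kinase. The probe that stood for the gene (chr10:128004749-128004808, - strand) gave 3.37 and 3.38 in the controls and 3.44 and 3.38 in the cKO animals. All 4 values lay within 0.10 of each other. The difference was 0.04 ± 0.08 (adjusted p = 0.853, limma), with a 95% interval of -0.19 to 0.26, the narrowest of the 9 tested genes. Another probe was dim, at -4.22 and -3.79 in the controls and -3.91 and -3.88 in the cKO animals. It gave 0.11 ± 0.17, with 0.31 and -0.09 in the litters. The probe that stood for the gene was listed under a different sequence record from the other Erbb3 probes. The probes thus disagreed on the gene's level, and the reason was not tested. With normexp all 3 receptor genes turned sign, to -0.16 for Egfr, -0.15 for Erbb2 and -0.17 for Erbb3. Once spots below their local background were left out, normexp gave 0.09, 0.06 and 0.08 in that order. The 95% interval of each receptor gene includes 0, so no direction can be given for the receptors.

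The other 3 Erbb3 probes were not well above background on both arrays of either group and are given as values only. Among these, 1 reads the same part of the gene, that which encodes the kinase, as the second Erbb2 probe, and the pair is shown because these related genes share sequence there. In the pair, capitals mark the 35 of 56 aligned bases that are identical (62.5%, with a longest shared run of 11 bases). The Erbb2 probe (chr11:98295824-98295883) was well above background on all 4 arrays, and the Erbb3 probe (chr10:128009195-128009254) on 0.
Erbb2: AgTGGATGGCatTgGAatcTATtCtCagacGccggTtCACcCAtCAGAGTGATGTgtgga
Erbb3: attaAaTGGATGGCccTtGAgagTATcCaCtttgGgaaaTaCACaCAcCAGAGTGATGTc

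A further Erbb3 probe shares 40 bases with the one just shown, in capitals below, and spans 289 bases of the genome (chr10:128009215-128009503), so its bases are not contiguous there.
Erbb3, overlapping probe: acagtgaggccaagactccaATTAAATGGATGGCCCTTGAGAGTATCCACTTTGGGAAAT
It was well above background only in the cKO animal of litter 2, with processed signals of 17.8 and 19.0 in the controls, 20.5 in the cKO animal of litter 1 and 57.6 in that of litter 2. The probe that shares 40 bases read 18.8 and 21.1 in the controls and 19.3 and 24.2 in the cKO animals. The single bright value was thus not seen with the overlapping probe. It rests on 1 spot.

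**Figure D4:**
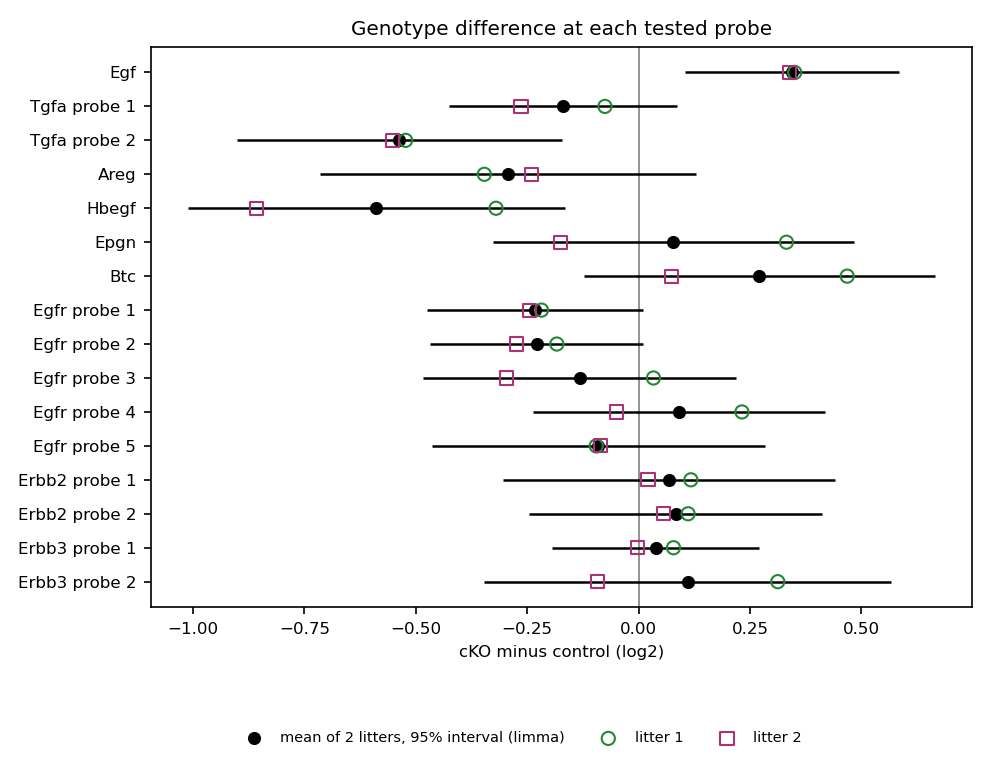
Difference cKO minus control (x axis, log2) at each of the 16 tested probes, numbered along the chromosome within a gene; black dots are the mean of the litters with the 95% interval of limma, green circles litter 1 and purple squares litter 2. The intervals of Egf, Tgfa probe 2 and Hbegf lie to 1 side of 0 before adjustment, and those of the other probes include 0.

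Adam17 itself, the targeted gene, stood at 0.44 and 0.37 in the controls and -0.14 and -0.12 in the cKO animals (-0.54 ± 0.09, adjusted p = 0.114, limma). The labels do not name the exon that Cre removes, so the probe may lie outside it. Of 12 listed sheddases of the ligands and their partners, 10 were measured and 0 passed, with a median of 0.01. With normexp the median was -0.08, or 0.0084 without spots below their local background. The smallest p belonged to Adam8, a metalloprotease of leukocytes and other cells, at 0.98 ± 0.09 (adjusted p = 0.0534). Adam10 was not tested, with a probe well above background on 2 arrays.

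Beside Egfr, Erbb2 and Erbb3, the fourth receptor gene, Erbb4, was dim and gave 0.14 ± 0.28 (adjusted p = 0.840). Of 4 neuregulins, the ligands of ERBB3 and ERBB4, 2 were measured and 0 passed. Nrg1 was at 0.34 ± 0.14 (adjusted p = 0.353) and Nrg4 at 0.28 ± 0.24 (adjusted p = 0.614).

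Downstream of the receptors, 17 of 18 adaptor and Ras-ERK cascade genes were measured, with 0 past the threshold and a median of -0.0068. Plcg1, which encodes phospholipase C gamma, was at -0.46 ± 0.10 (adjusted p = 0.159), and Sos2, a Ras activator, at 0.27 ± 0.10 (adjusted p = 0.305). Of 13 PI3K-AKT and STAT genes all were measured and 0 passed (median 0.06). With normexp the median was -0.13, or 0.02 without spots below their local background. Stat5a was at 0.19 ± 0.10 and Pik3cb at -0.18 ± 0.10 (adjusted p = 0.441 and 0.444, limma). Of 13 inhibitors and degradation factors of the receptors, 11 were measured and 0 passed (median -0.05). Ptpn1, a phosphatase that acts on EGFR, was at -0.32 ± 0.08 (adjusted p = 0.209), and Lrig3 at 0.23 ± 0.09 (adjusted p = 0.314).

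The list of feedback and target genes that ERK is known to induce held the largest single difference of the 8 pathway lists. Of its 18 genes, 17 were on the array and 16 were measured. None of the 16 passed in limma. At an unadjusted p under 0.05, 4 were lower and 1 higher, beside 8.12% lower and 8.02% higher of all genes. The list was chosen with earlier results of these data known, so these counts give no support. The median of the 16 was -0.10. The 1 higher gene was Myc, at 0.51 ± 0.11 (adjusted p = 0.159, limma). Egr1, an immediate-early transcription factor gene, was at 3.88 and 3.50 in the controls and 1.57 and 1.19 in the cKO animals, a difference of -2.31 ± 0.20 and of -2.31 within each litter (adjusted p = 0.0513). It passed under quantile normalization (limma adjusted p = 0.0483), median scaling (0.0466) and in the authors' deposited values (0.0474). No gene of the list passed with normexp on all spots (lowest limma adjusted p 0.728) or without the filter on dim probes (0.201). None passed with probes well above background on all 4 arrays (0.0524) or with the replicate block (0.0566 over all genes). Dusp6, an ERK phosphatase, was at 5.06 and 4.90 in the controls and 3.94 and 3.98 in the cKO animals (-1.03 ± 0.10, adjusted p = 0.0534). For Egr1 and Dusp6 the gap between the genotypes was larger than the spread within each. They were named for the smallest p of the list, which favours such a gap, so this gives no support of its own.

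**Figure D5:**
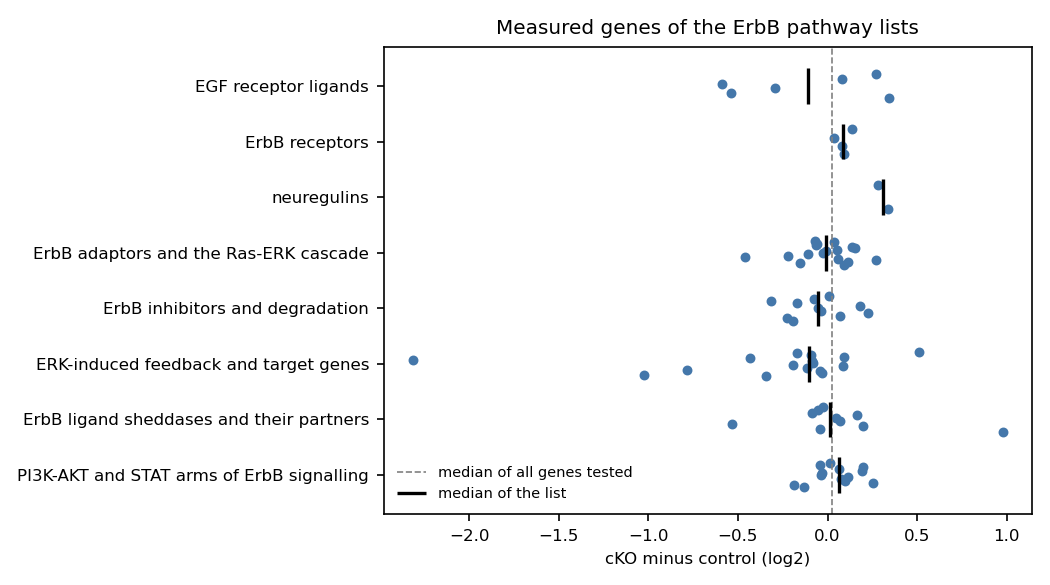
Difference cKO minus control (x axis, log2) of each measured gene in 8 lists of the ErbB pathway, 1 point per gene, with the median of each list (black bar) and of all genes tested (dashed line, 0.03). The ligands spread from -0.59 to 0.34 and the receptors lie close to 0, while the feedback and target list reaches -2.31 with Egr1.

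Markers of the cell types in the biopsies were read beside these values, and in each list given here 0 genes passed in limma. Counts of markers higher or lower in both litters stand beside 40.4% of all genes higher and 32.1% lower in both. Markers of skin were well above background on all arrays: Krt5 was at 8.37 and 8.30 in control and 8.47 and 8.38 in cKO skin, and Col1a1 between 7.02 and 7.89. Of 7 basal keratinocyte markers, which mark the cells with the most EGF receptor, 6 were higher in both litters (median 0.16, summed level 9.34 to 9.36 in control and 9.43 to 9.47 in cKO skin). Of 6 suprabasal markers 5 were higher in both (median 0.30, summed level 8.13 to 8.27 against 8.58 to 8.82). The 7 fat cell markers had a median of 0.55 (summed level 7.89 to 8.35 against 8.41 to 8.54, 4 higher in both litters), and 7 skeletal muscle markers a median of 0.40 (8.19 to 8.66 against 8.68 to 8.70, 5 higher in both). Of 5 T cell markers 4 were lower in both litters (median -0.76, -0.09 to -0.07 against -0.72 to -0.45), and 3 measured red cell markers all were (median -0.37, 5.29 to 5.86 against 4.88 to 5.50). With normexp the median turned to -0.12 for the basal keratinocyte and to 0.32 for the T cell markers, while the other 4 lists kept their sign. Once spots below their local background were left out, normexp gave 0.15 for the basal keratinocyte and -0.46 for the T cell markers. The part of cell makeup in the differences of the ligands and receptors was not tested.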

How the data were processed

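The deposited scanner files give the authors' intensity values per spot from Agilent Feature Extraction (10.5 per the submitters' processing notes, 10.7.3.1 per the file headers), of which the background-subtracted processed signal was used. Probe positions are in mm9 per the file headers. The authors' deposited series table holds log2 values, which matched the values computed here once these were centred on each probe's median (correlation at least 0.99999).

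Here, each array's log2 signals were set relative to its 75th percentile. Control spots and outlier spots (51 to 66 an array) were dropped, and the spots of a probe averaged. A probe was tested where both arrays of a group were well above background (22188 probes), and the probe of highest mean stood for a gene (15548 genes). Names came from RefSeq GRCm38.p6 through the accession (26792 probes), symbol (5125) or synonym (929), and otherwise from the files (8328). The tests used lmFit and eBayes of limma 3.58.1 under R 4.3.3 (no covariate, two-sided, Benjamini-Hochberg over all genes or all probes), which was tested on simulated data. The simulated noise was independent, drawn from limma's own fitted variances and without a litter effect. It therefore could not test the fit on litter pairs. Intervals are at 95%.

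The litter numbers pair the animals per the labels, and deviations from the group means correlated across genes at 0.35 (Spearman 0.43). Slide and scan were shared by all arrays. With 4 arrays, their number limits the precision. The members, lists and tests were chosen with earlier results of these data known. All 10 members and all their probes are named, with Adam17 and, of each pathway list, the 2 genes of smallest p as values. Myc is also named, as the 1 higher gene of the feedback and target list at an unadjusted p under 0.05. Other marker lists (granular layer, hair shaft, inner root sheath, fibroblast, endothelial, macrophage and Langerhans cell, melanocyte, mast cell) had medians of 0.05, -0.15, -0.05, -0.15, -0.07, 0.13, 0.36 and 0.35 in that order, with 0 genes past the threshold in limma. With normexp the granular layer turned to -0.16 and endothelial to 0.04, or 0.08 and -0.07 without spots below their local background. Alternatives were other background corrections, scalings, filters, probe summaries, the replicate block and leaving out each array.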

Additional observations from a re-analysis of the deposited data

How the results depend on the processing

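Over 217 combinations of a member gene or probe with 1 of 14 alternatives, 0 passed an adjusted p of 0.05 (limma; lowest 0.110, for Tgfa with litter as a replicate block), 200 kept their direction and 17 did not. With the replicate block the adjusted p of the 9 genes ranged from 0.110 to 0.775, so the pairing changed no member's call. Tgfa ranged from -0.66 to -0.34, Hbegf from -0.76 to -0.42, Egf from 0.24 to 0.73 and Btc from 0.09 to 0.45, and these 4 kept their sign in all 14. Areg ranged from -0.46 to 0.10. With normexp background correction the sign turned for Areg (0.10), Egfr (-0.16), Erbb2 (-0.15), Erbb3 (-0.17), the second Tgfa probe (0.66) and the Egfr probe at 16812181 (0.24). In this setting 3 spots of 1 cKO array lay below their local background, and none of these signs turned when such spots were left out, an alternative chosen after seeing the data. The mean over all probes of a gene gave -0.12 for Egfr. On leaving out 1 array, Epgn ranged from -0.081 (without control replicate 1) to 0.24 and was -0.016 without cKO replicate 1. Egfr ranged from -0.040 (without cKO replicate 1) to 0.22, and Erbb2 from -0.022 (without control replicate 1) to 0.19. Among other probes, the Egfr probe at 16812181 ranged from -0.28 to 0.015 (without cKO replicate 2) and that at 16817630 from -0.21 to 0.028 (without cKO replicate 1; 0.023 without control replicate 2). The second Erbb2 probe ranged from -0.068 (without control replicate 1; -0.020 without cKO replicate 2) to 0.21, and the Erbb3 probe at 128007281 from -0.11 (without control replicate 1) to 0.33. The cause was not tested.

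Over all genes, 53 passed in limma, 0 with the replicate block (3703 at an unadjusted p under 0.05), 0 with normexp (424), 131 with normexp once spots under their local background were dropped, 80 with quantile normalization, 0 without the filter on dim probes (2077), 28 with probes well above background on all 4 arrays, and 0 to 38 on leaving out 1 array (0 without either control, 38 without cKO replicate 1 and 24 without cKO replicate 2). In the feedback and target list 1 gene, Egr1, passed with quantile normalization, with median scaling and in the authors' values, and 2, Egr1 and Dusp6, with normexp after those spots were dropped. In that setting 1 gene of the sheddase list passed, Adam8.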
